A study of Mus musculus with 6 samples.

Results

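The SLAM family consists of lymphocyte surface receptors of the immunoglobulin superfamily, and the SAP adaptors are the small SH2 domain proteins that bind their tails. Its 9 members examined here were taken by gene symbol, as 6 receptor genes (Slamf1, Slamf6, Slamf7, Cd48, Cd84 and Ly9) and 3 adaptor genes (Sh2d1a, Sh2d1b1 and Sh2d1b2), out of 29393 genes in the count table. All 9 were among the 14916 genes tested, those that reached 10 counts in 3 or more libraries. The cells were cDNT, double negative T cells of adult C57BL/6 mice, CD45.1 positive per the methods, that, by the study's methods, were converted in culture from splenic and lymph node CD4+CD25- T cells by mature dendritic cells with added IL-2 and isolated by sorting. The methods add anti-CD3/CD28 antibodies to the culture with IL-10 and do not spell out the culture of the controls. The W/ IL-10 group was kept for 24 h with 50 ng/ml of IL-10 and the W/O IL-10 group had none of it, with 3 libraries each. The labels leave the antibodies out, give the tissue as spleen, and do not say whether the libraries came from separate cultures, so the p-values measure the spread between these libraries, which may be technical.

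Most SLAM receptors pair with themselves on neighbouring cells. CD48, which is anchored in the membrane by a lipid, is instead the ligand of CD244 (2B4), itself of the SLAM family, and, in mice, of CD2. The tails of the receptors examined here other than CD48 carry immunoreceptor tyrosine-based switch motifs. When the tyrosine is phosphorylated, an adaptor can dock there, though not every adaptor at every receptor. SAP (encoded by Sh2d1a) brings the kinase FYN. The related EAT-2 (Sh2d1b1) and ERT (Sh2d1b2) can dock in place of SAP, and phosphatases can bind the same motif. The system is known for its part in NK cell killing, in T cell help to B cells and in the development of innate-like T cells. EAT-2 and ERT are known mostly from NK cells and, for EAT-2, antigen-presenting cells.

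Of the 9 members, Sh2d1b2 was the gene that passed the test. Its transcript fell by 35.1% W/ IL-10, while its neighbour and close copy Sh2d1b1 and the SAP gene Sh2d1a did not pass. Slamf6 (fold change 0.787 W/ over W/O IL-10) and Cd48 (fold change 1.19) had values that did not overlap between the groups, in opposite directions, and adjusted p-values of 0.130 and 0.121. The groups of Sh2d1b2 and Ly9 did not overlap either, and nor did those of 22.6% of all tested genes. With edgeR's quasi-likelihood test and Benjamini-Hochberg adjustment over all tested genes, 0 members were higher and 1 was lower at an adjusted p-value under 0.05, where 2.19% of all tested genes were called, 1.21% as higher and 0.979% as lower. Over the 9 members the median log2 fold change was -0.14, with 4 above 0 and 5 below, against 0.01 over all tested genes.

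The codons of the motifs through which receptors and adaptors meet are shown first, since they are what joins the receptor genes to the adaptor gene that fell. The coding sequence of each receptor was searched for codons of the switch motif, threonine, any residue, tyrosine, any 2 residues, and valine or isoleucine. The codons of the threonine, the tyrosine and the last residue are in capitals, and all lie within single exons on chromosome 1 of GRCm38.
Slamf1, first motif, chr1:171792339-171792356, plus strand: ACTattTATgcccaaGTA
Slamf1, second motif, chr1:171799588-171799605, plus strand: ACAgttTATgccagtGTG
Slamf6, first motif, chr1:171939437-171939454, plus strand: ACTgtgTATgcacaaGTC
Slamf6, second motif, chr1:171941664-171941681, plus strand: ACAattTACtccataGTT
Slamf7, chr1:171636327-171636344, minus strand: ACAtttTATtccactGTG
Cd84, first motif, chr1:171884605-171884622, plus strand: ACAgtaTATgctgtaGTT
Cd84, second motif, chr1:171885601-171885618, plus strand: ACCattTATtcctcaGTG
Ly9, first motif, chr1:171593912-171593929, minus strand: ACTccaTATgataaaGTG
Ly9, second motif, chr1:171593438-171593455, minus strand: ACAatcTACtgctctGTG
Slamf1, Slamf6, Cd84 and Ly9 thus had 2 matches and Slamf7 had 1, with 8 to 67 codons after the tyrosine. Cd48 had 1 match, at codons 105 to 110 of 240, with 133 codons after its tyrosine, in the outer part of a protein that has no tail in the cell.

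The adaptors' side of the contact is the arginine of the SH2 domain that holds the phosphate, shown here in 11 codons of each gene with the arginine codon in capitals.
Sh2d1a, chrX:42502801-42502833, plus strand: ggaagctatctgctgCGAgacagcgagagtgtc
Sh2d1b1, chr1:170277451-170277483, plus strand: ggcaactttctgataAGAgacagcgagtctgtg
Sh2d1b2, chr1:170232946-170232978, plus strand: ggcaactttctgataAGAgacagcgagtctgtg
These codons are the same in Sh2d1b1 and Sh2d1b2. The adaptors differ at their ends, where EAT-2 and ERT carry tyrosines that SAP lacks. The last 16 codons, with tyrosine codons in capitals, had 2 tyrosine codons in each of the EAT-2 genes and 0 in Sh2d1a.
Sh2d1a: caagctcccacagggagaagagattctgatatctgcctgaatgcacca
Sh2d1b1: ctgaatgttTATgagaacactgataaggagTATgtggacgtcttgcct
Sh2d1b2: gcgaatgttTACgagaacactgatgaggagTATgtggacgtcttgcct
Over the whole coding sequence Sh2d1b1 and Sh2d1b2, of 132 codons each, were 91.2% identical, and Sh2d1a (126 codons) was 55.3% identical to Sh2d1b1 and 58.1% to Sh2d1b2 in global alignments.

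Sh2d1b2, which encodes ERT (ENSMUSG00000073494, chromosome 1, 170232749 to 170253608), had 1551, 1565 and 1319 counts W/O IL-10 and 900, 955 and 776 counts W/ IL-10, given here and below in the order of replicates 1 to 3. On the CPM scale, which divides counts by the TMM-scaled library size, these were 63.3, 64.7 and 56.8 W/O IL-10 and 43.7, 42.4 and 34.0 W/ IL-10. Each W/ IL-10 library was below each W/O IL-10 library, and the lowest W/O IL-10 value was well above the highest W/ IL-10 value. The mean of 3 libraries was 61.6 ± 4.22 CPM (SD) without and 40.0 ± 5.27 CPM (SD) with IL-10. On the log2 scale the change was -0.62, with a standard error of 0.11 (adjusted p = 0.0276, edgeR). The fold (1.54 times higher W/O IL-10) was just past the study's threshold of 1.5. Under the tools, normalizations and filters tried on all 6 libraries, the adjusted p stayed under 0.05. With 1 library left out it was 0.102 without W/O IL-10 replicate 2, 0.0779 without W/ IL-10 replicate 1, 0.0784 without W/ IL-10 replicate 2 and 0.116 without W/ IL-10 replicate 3, at log2 fold changes of -0.69 to -0.52.

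Sh2d1b1, which encodes EAT-2 (ENSMUSG00000102418, chromosome 1, 170277320 to 170286769), lies 23.7 kb from Sh2d1b2 on the same strand. Its values were 31.0, 27.2 and 29.2 CPM W/O IL-10 and 30.1, 26.3 and 22.7 CPM W/ IL-10, and the groups overlapped. Its log2 fold change was -0.14 with a standard error of 0.12 (adjusted p = 0.622, edgeR). Left out 1 at a time, the libraries moved it between -0.25 (without W/ IL-10 replicate 1) and -0.046 (without W/ IL-10 replicate 3), with adjusted p-values of 0.461 to 0.906. To compare the pair directly, the counts of Sh2d1b2 were divided by those of Sh2d1b1 within each library, where depth cancels. The ratio was 2.04, 2.38 and 1.95 W/O IL-10 and 1.45, 1.61 and 1.495 W/ IL-10. It was thus lower in each W/ IL-10 library, by 0.48 on the log2 scale (two-sided exact permutation test, p = 0.1, the smallest that 3 libraries against 3 can give). Sh2d1b2 made up 67.9% ± 2.27 (SD, n = 3) of the pair's counts W/O IL-10 and 60.3% ± 1.29 (SD, n = 3) W/ IL-10. The genes share 13.4% of the 50-base stretches of Sh2d1b1 and 13.1% of those of Sh2d1b2. Reads wholly within shared sequence could not be told apart, and their share was not computed, since 50 bases is a setting and not the read length. How the counting treated such reads is not given in the sources used here.

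**Figure D1:**
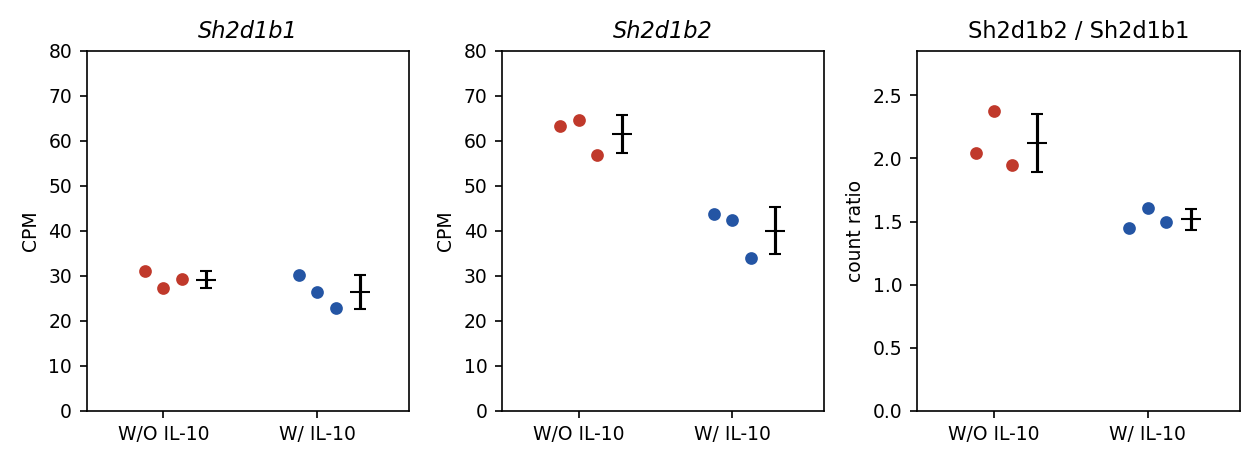
CPM of Sh2d1b1 and Sh2d1b2 and the ratio of their counts in each library (points, red W/O IL-10, blue W/ IL-10; black bars are the mean and SD of 3 libraries). Sh2d1b2 sits between 34.0 and 43.7 CPM W/ IL-10, below all W/O IL-10 libraries, while the groups of Sh2d1b1 overlap, and the ratio is at most 1.61 W/ IL-10 and at least 1.95 W/O IL-10.

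Since these neighbouring copies differed in their values, the bases ahead of them were set side by side. A local alignment of the RefSeq promoter windows (GRCm38.p6), limited to the bases before the GENCODE start of each gene, matched the stretches below. Letters in capitals differ between the genes or face a gap.
Sh2d1b1, chr1:170277129-170277253, plus strand: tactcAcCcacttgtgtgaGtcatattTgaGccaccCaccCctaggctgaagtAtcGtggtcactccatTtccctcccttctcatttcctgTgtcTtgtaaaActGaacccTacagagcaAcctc
Sh2d1b2, chr1:170232621-170232748, plus strand: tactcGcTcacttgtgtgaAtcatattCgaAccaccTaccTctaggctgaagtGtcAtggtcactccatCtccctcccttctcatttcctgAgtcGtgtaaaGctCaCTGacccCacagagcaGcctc
The stretches were 85.2% identical over 128 aligned columns, as the part of the windows that matched best. The RefSeq windows of 250 bases, aligned end to end, were 55.0% identical over 311 columns, of which 171 were identical and 122 held gaps. These windows were offset against the genes. That of Sh2d1b2 ran to 170232870, past its GENCODE start, while that of Sh2d1b1 ended at 170277317, before its own. The 55.0% thus includes this offset and does not measure how alike the promoters are. The stretch ended 1 base before the annotated start of Sh2d1b2, where the bases used were cut off, and 67 bases before that of Sh2d1b1. The windows ran on nearly alike past this point, so it is not where the likeness ends. Promoter windows were found for 7 of the 9 members, the exceptions being Ly9 and Sh2d1a. The motif TTCNNNGAA, to which STAT factors such as the STAT3 of the IL-10 receptor are known to bind and which reads the same on both strands, was present in 0 of these 7 windows of 250 upstream bases and in 7.18% of 27025 windows of all genes. This says only that these letters were not in these windows, some of which, as that of Sh2d1b2, include bases past the GENCODE start.

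Sh2d1a, the gene of SAP (ENSMUSG00000005696, chromosome X, 42502453 to 42529330), had 88.2, 70.7 and 89.5 CPM W/O IL-10 and 84.0, 84.0 and 84.1 CPM W/ IL-10. The W/ IL-10 libraries lay between the lowest and the highest W/O IL-10 library. Its log2 fold change was 0.02 with a standard error of 0.10 (adjusted p = 0.947, edgeR), and its sign was reversed without W/O IL-10 replicate 2 (-0.09) and once offsets for GC content and length were added (-0.28). Of its exon bases 26.6% lie under exons of the opposite-strand gene Tenm1, which had 8 counts in all libraries together. Summed over the adaptors, the level was 173 ± 10.1 CPM W/O IL-10 and 150 ± 8.73 CPM with it (SD, n = 3), a description without a test.

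Among the receptors, 0 of 6 passed at an adjusted p-value under 0.05 with edgeR, and also 0 with DESeq2 and limma-voom, while 2 had an unadjusted p-value under 0.05 with edgeR, as did 14.7% of all tested genes. These were Slamf6 and Cd48. Slamf6 was called with no filter on low counts and without W/O IL-10 replicate 1. It was also called with offsets for GC content and length, with or without a block for replicate number. Those settings called 525 to 1239 of all tested genes, against 327 in the main fit. In Slamf6, Cd48 and Ly9, 3 of the 6 receptors, the groups were fully apart, as in 22.6% of all tested genes.

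Slamf6 (Ly108, ENSMUSG00000015314, chromosome 1, 171917515 to 171953170), a self-binding receptor of T, B and NK cells, had 63.9, 77.6 and 81.0 CPM W/O IL-10. W/ IL-10 it had 55.8, 58.5 and 60.8 CPM. All W/ IL-10 libraries were lower, and W/O IL-10 replicate 1 was closer to them than to the other W/O IL-10 libraries. The log2 fold change was -0.34 with a standard error of 0.10 (adjusted p = 0.130, edgeR). It was -0.45 (adjusted p = 0.00769) without W/O IL-10 replicate 1, and between -0.38 and -0.29 with any other library left out, with adjusted p-values of 0.260 to 0.339. With the offsets for GC content and length it was -0.42 (adjusted p = 0.0188, edgeR). The study chose Slamf6 for mention on these same libraries, so its direction here is not independent evidence.

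Cd48 (ENSMUSG00000015355, chromosome 1, 171682009 to 171705258) had 132, 123 and 125 CPM W/O IL-10 and 156, 146 and 149 CPM W/ IL-10. The lowest W/ IL-10 library was above the highest W/O IL-10 library. The log2 fold change was 0.25 with a standard error of 0.07 (adjusted p = 0.121, edgeR). With the offsets for GC content and length it was 0.10 (adjusted p = 0.621, edgeR). Set against Cd48 within each library, the counts of Slamf6 were 0.485, 0.630 and 0.648 times those of Cd48 W/O IL-10 and 0.358, 0.400 and 0.407 times W/ IL-10. The mean ratio was lower W/ IL-10 by 0.59 on the log2 scale. This is a description, since the separation of the groups in both genes fixes that of their ratio.

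Ly9 (CD229, ENSMUSG00000004707, chromosome 1, 171588624 to 171607410), a self-binding receptor with a long outer part, had 96.1, 96.4 and 107 CPM W/O IL-10 and 87.1, 86.7 and 95.4 CPM W/ IL-10. The highest W/ IL-10 value was just under the lowest W/O IL-10 value. Its log2 fold change was -0.16 with a standard error of 0.08 (adjusted p = 0.402, edgeR). The gene lies within the span of Cd244a on the opposite strand, with no shared exon bases.

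In the other receptors the groups overlapped. Slamf1 (CD150, ENSMUSG00000015316, chromosome 1, 171767127 to 171801184), the receptor that gave the family its name, was the least counted, with 7.71, 9.54 and 7.57 CPM W/O IL-10 and 6.60, 8.12 and 7.05 CPM W/ IL-10. These values rested on 136 to 231 counts in a library, and the log2 fold change was -0.19 with a standard error of 0.16 (adjusted p = 0.621, edgeR). It was -0.081 without W/O IL-10 replicate 2, -0.13 without W/ IL-10 replicate 1 and -0.28 without W/ IL-10 replicate 2. Slamf7 (CRACC, ENSMUSG00000038179, chromosome 1, 171632403 to 171653035), a self-binding receptor known from NK and plasma cells, had 99.0, 91.3 and 98.5 CPM W/O IL-10 and 112, 96.7 and 111 CPM W/ IL-10. W/ IL-10 replicate 2 was its library within the W/O IL-10 range, and the log2 fold change was 0.15 with a standard error of 0.08 (adjusted p = 0.444, edgeR). Cd84 (ENSMUSG00000038147, chromosome 1, 171839697 to 171890718), a self-binding receptor of T and B cells, had 116, 129 and 139 CPM W/O IL-10 and 158, 126 and 132 CPM W/ IL-10. Only W/ IL-10 replicate 1 was above the W/O IL-10 range. Its log2 fold change was 0.11 with a standard error of 0.11 (adjusted p = 0.677, edgeR), between 0.0048 (without W/ IL-10 replicate 1) and 0.18 (without W/ IL-10 replicate 2) with 1 library left out, 0.033 without W/O IL-10 replicate 1, and -0.09 with the offsets for GC content and length. Of the exon bases of Slamf7, 9.24% lie under exons of the antisense gene Gm37787, which had 26 counts in all libraries together.

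**Figure D2:**
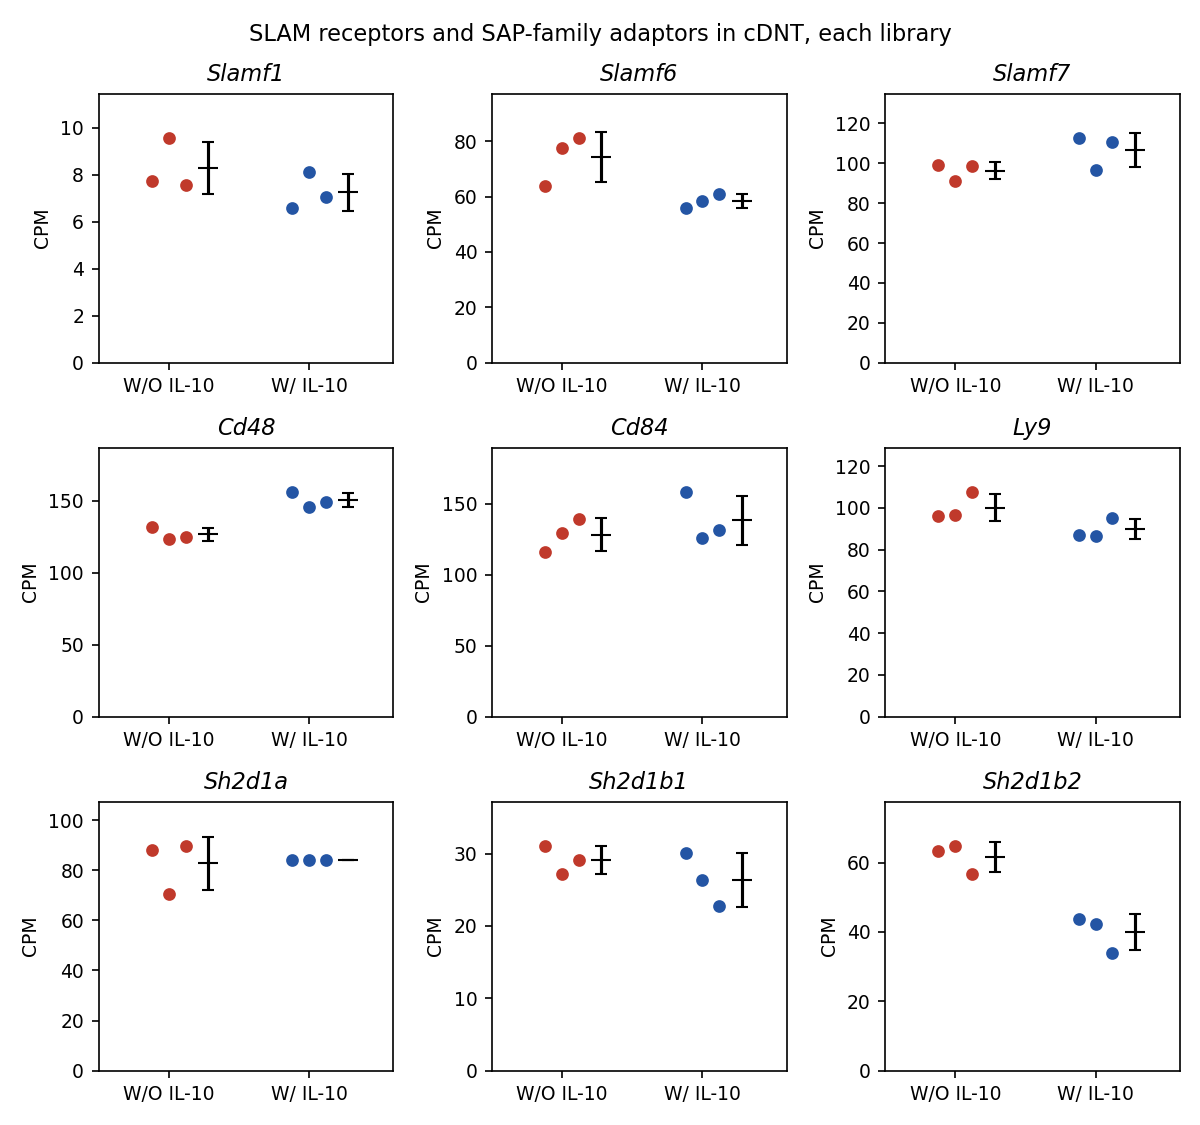
CPM of the 9 members in each library (red W/O IL-10, blue W/ IL-10, replicates 1 to 3 from left to right; black bars are the mean and SD of 3 libraries; each axis starts at 0 and has its own scale). The groups are apart in Sh2d1b2, Slamf6, Cd48 and Ly9 and overlap in the other 5 members. Over all tested genes they are apart in 22.6%.

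**Figure D3:**
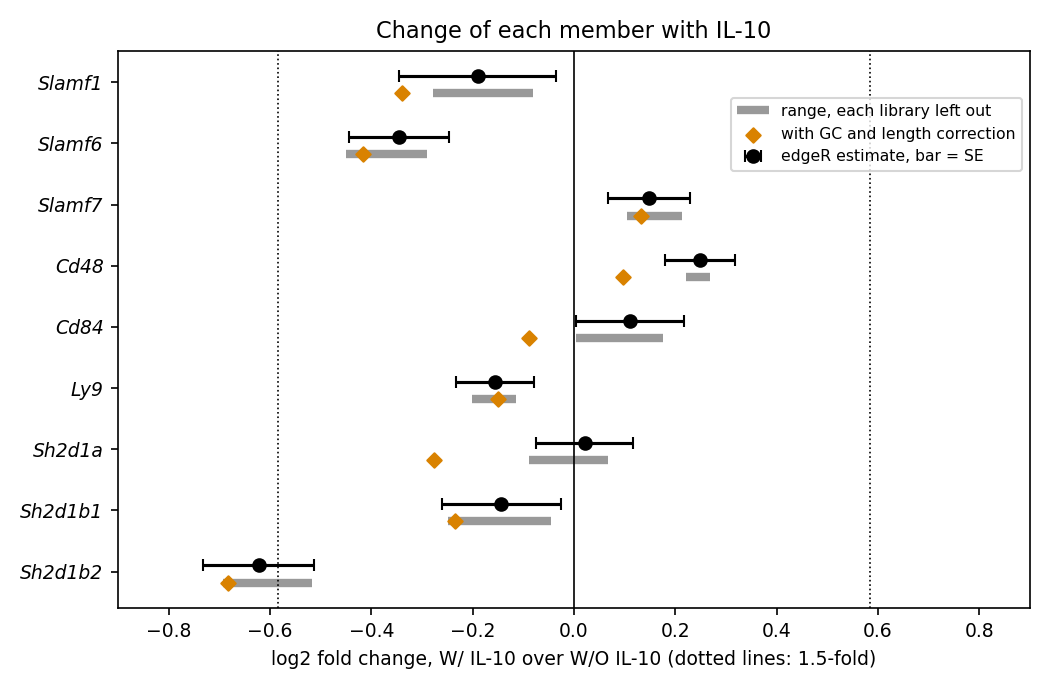
Log2 fold change of each member, W/ IL-10 over W/O IL-10 (black points, bars are the standard error), with the range when each library is left out (grey) and the value with the offsets for GC content and length (orange); dotted lines mark 1.5-fold. Sh2d1b2 at -0.62 lies past the dotted line, and the orange points of Cd84 and Sh2d1a lie on the other side of 0 from their black points.

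The receptor genes lie side by side on chromosome 1, where the 6 receptors and Cd244a span 394 kb, and the EAT-2 pair lies outside this span, 1272 kb from Cd244a. Their changes did not follow the order along the chromosome. Ly9, Slamf1 and Slamf6 had log2 fold changes below 0. Slamf7 and Cd48, which lie between Ly9 and Slamf1, and Cd84, which lies between Slamf1 and Slamf6, had log2 fold changes above 0. Summed over the 6 receptors the level was 534 ± 22.8 CPM W/O IL-10 and 551 ± 27.3 CPM with it (SD, n = 3), a description without a test.

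**Figure D4:**
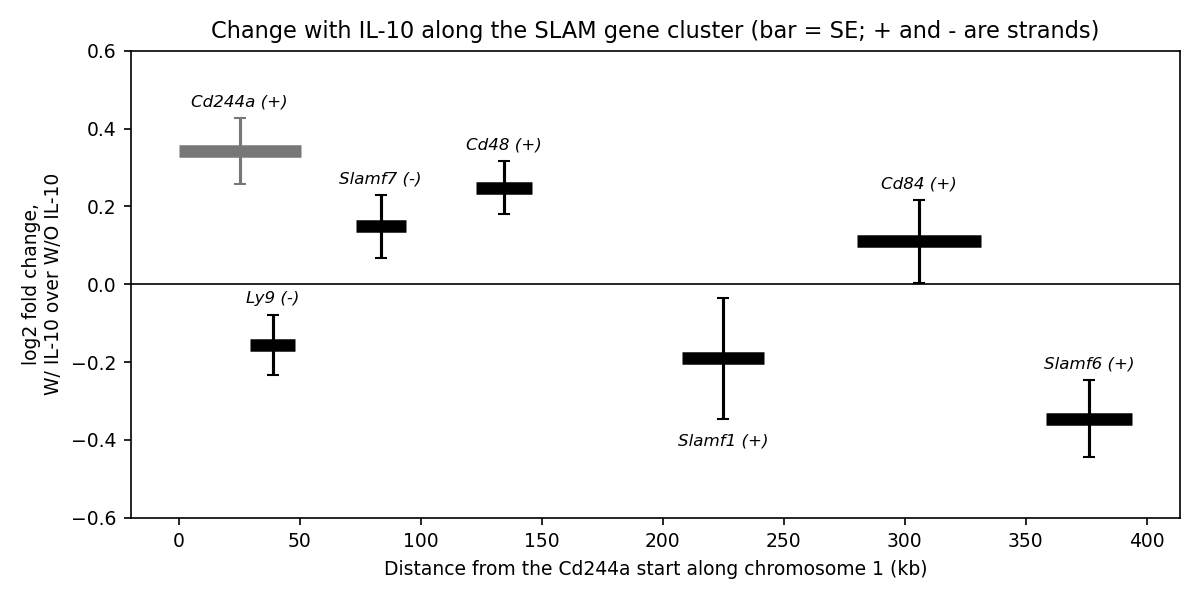
Log2 fold change (W/ IL-10 over W/O IL-10) of the genes of the SLAM cluster against distance from the start of Cd244a in kb; horizontal bars are gene spans, vertical bars standard errors, black the 6 receptors and grey Cd244a. Values above and below 0 are mixed along the 394 kb, from -0.34 in Slamf6 to 0.34 in Cd244a.

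Levels of different genes were compared per kilobase of the union of each gene's exons. On this scale, CPM per kilobase, Cd48 was the highest, at 107 without IL-10 and 127 with it, and Slamf1 the lowest, at 1.34 and 1.178. W/O IL-10 the order was Cd48, Ly9 (30.2), Sh2d1b2 (24.2), Slamf7 (21.03), Cd84 (20.4), Sh2d1a (15.0), Sh2d1b1 (11.4), Slamf6 (6.85) and Slamf1. Slamf7 and Cd84 were the neighbours whose libraries overlapped. W/ IL-10 Sh2d1b2 (15.7) was behind Slamf7 (23.3) and Cd84 (22.1), and its libraries overlapped those of Sh2d1a (15.3). This order depended on the length used. Per kilobase of the longest transcript, Sh2d1b2 (24.2) was behind Cd84 (37.3) W/O IL-10 as well, and its libraries overlapped those of Slamf7 (24.2). Slamf6 (12.9) was there ahead of Sh2d1b1 (11.4), with overlapping libraries. The longest protein-coding transcript gave these genes the same values. The place of Sh2d1a also depended on the length, since its coding transcript is much shorter than its exons together. Per kilobase of the longest protein-coding transcript, Sh2d1a was the second highest, at 67.7 without IL-10 and 68.7 with it, and its libraries did not overlap those of Sh2d1b2 (24.2 and 15.7). Cd48 stayed the highest and Slamf1 the lowest under each of the lengths.

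**Figure D5:**
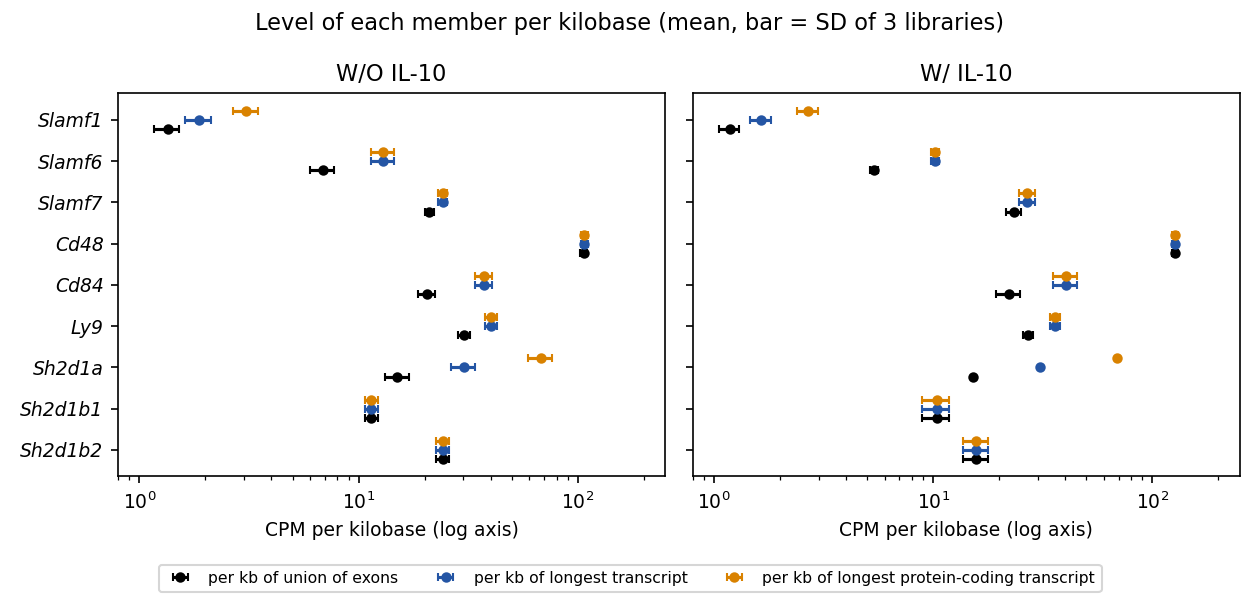
Level of each member in CPM per kilobase on a log axis, W/O IL-10 (left) and W/ IL-10 (right), as mean and SD of 3 libraries, per kilobase of the union of exons (black), the longest transcript (blue) and the longest protein-coding transcript (orange). Cd48 is at the right and Slamf1 at the left in both groups, and Sh2d1a moves from 15.0 to 67.7 W/O IL-10 with the length used.

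The other genes of the pathway were taken as a list of 43 receptors, kinases, phosphatases, adaptors and transcription factors, of which 40 were tested. Slamf8, Slamf9 and Il21 were below the filter. In this list 0 genes were called higher and 1, Maf, was called lower at an adjusted p-value under 0.05 (edgeR), and 39 were not called. The median log2 fold change was 0.00, with 20 genes above and 20 below 0. Of all tested genes 2.19% were called. An unadjusted p-value under 0.05 (edgeR) was reached by 15 of the 40, and by 14.7% of all tested genes. Without overlap of the groups, 10 of the 40 were higher and 11 lower W/ IL-10, as were 11.3% and 11.2% of all tested genes. These counts are a description of a chosen list, without a test. DESeq2 called 3 of the list higher and 2 lower, and 4.67% of all tested genes.

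Of the tested receptors in the list, those encoded by Cd244a and Cd2 bind CD48. Cd244a, which encodes the NK and T cell receptor 2B4, had 155, 144 and 144 CPM W/O IL-10 and 206, 172 and 184 CPM W/ IL-10. All W/ IL-10 libraries were higher, by 0.34 on the log2 scale, standard error 0.09 (adjusted p = 0.0898, edgeR). Cd2, an adhesion receptor, had 113 ± 13.2 CPM (SD) W/O IL-10 and 133 ± 3.81 CPM (SD) W/ IL-10, and the difference was 0.24 on the log2 scale (adjusted p = 0.277, edgeR). Thus Cd48 and both genes of its binding partners had fold changes above 0, and 0 of the 3 passed the test.

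Of the kinases, Fyn, the one that SAP recruits, had 349 ± 22.1 CPM W/O IL-10 and 390 ± 29.4 CPM W/ IL-10 (adjusted p = 0.449, edgeR), and its groups overlapped. Lck, the kinase of the T cell coreceptors, had 268 ± 20.2 and 353 ± 38.8 CPM, a difference of 0.40 on the log2 scale (adjusted p = 0.0921, edgeR). Among the phosphatases that can bind switch motifs, log2 fold changes were 0.30 for Ptpn6 (SHP-1, adjusted p = 0.104, edgeR), -0.10 for Inpp5d (SHIP1, adjusted p = 0.588) and -0.11 for Ptpn11 (SHP-2, adjusted p = 0.585). None of these genes passed the test.

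Maf, a transcription factor of T helper and innate-like T cells, had 72.5, 79.6 and 69.3 CPM W/O IL-10 and 56.3, 51.0 and 47.5 CPM W/ IL-10. Every W/ IL-10 library was lower, and the log2 fold change was -0.52 with a standard error of 0.09 (adjusted p = 0.0272, edgeR). Zbtb16, which encodes PLZF, the factor of the innate-like T cells whose development needs SAP, had 31.7, 23.7 and 18.9 CPM W/O IL-10 and 17.1, 14.4 and 13.8 CPM W/ IL-10. The groups did not overlap, the W/O IL-10 libraries were widely spread, and the log2 fold change was -0.72 (adjusted p = 0.0974, edgeR).

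The genes whose pattern over the 6 libraries was most like that of Sh2d1b2 were Dscaml1, Ccr4 and Src, at root mean square distances of 0.0830, 0.0973 and 0.136 between log2 CPM values centred and scaled to unit SD. Dscaml1, an adhesion molecule of neurons, had 3 to 13 counts in a library. Ccr4, a chemokine receptor of T cells, fell, with -1.55 as its log2 fold change (adjusted p = 0.0291, edgeR). Src, a kinase, was at -0.99 on that scale (adjusted p = 0.0847, edgeR). The scaling removes the size of the change, and since these genes were chosen for likeness, their sharing of the pattern is no separate result.

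The libraries held 21619420 to 23967088 counts, and 3 counts corresponded to 0.122 to 0.146 CPM, far under the lowest member value. In bulk RNA fewer cells of a type and less RNA per cell cannot be told apart. Genes of low GC content were shifted upward W/ IL-10. The median log2 fold change was 0.24 over 1008 genes at up to 40% GC and -0.06 over 6621 genes above 50%, while the members lay between 38.9% (Sh2d1a) and 48.2% (Ly9), and with the offsets for GC content and length Slamf1 was at -0.34, Sh2d1b1 at -0.24 and Sh2d1b2 at -0.68, each on the same side of the threshold as without them. T cell markers summed to 2777 to 3257 CPM W/O IL-10 and 3581 to 3633 CPM W/ IL-10 (8 genes, 0 called higher and 1 lower). Although the label calls the cells double negative, Cd8a was at 107 ± 11.7 CPM W/O IL-10 and 158 ± 16.6 CPM W/ IL-10 (adjusted p = 0.0369, edgeR), Cd8b1 was at 38.1 ± 6.03 and 60.7 ± 5.14 CPM (adjusted p = 0.0306), and Cd4 was at 1.39 and 0.888 CPM. Since ERT is known from NK cells, the 7 NK and innate lymphocyte markers bear on Sh2d1b2. Of these, 1 was called higher and 2 lower. Their sum was 2543 to 3201 CPM W/O IL-10 and 3916 to 5421 CPM W/ IL-10, most of it Gzma, which rose (log2 fold change 1.06, adjusted p = 0.0116, edgeR). Ncr1, which encodes the NK receptor NKp46, fell from 6.52 to 2.95 CPM (adjusted p = 0.0460), and Eomes, a transcription factor of NK and memory T cells, fell from 517 to 364 CPM (adjusted p = 0.0176). The other 4 were not called, with log2 fold changes of -0.42 in Tyrobp, -0.27 in Klrb1c, -0.02 in Fcer1g and 0.38 in Klra8 (adjusted p = 0.444 to 0.976, edgeR). The part of such cells in the change of Sh2d1b2 was not tested. Dendritic cell markers summed to 31.3 to 34.6 and 51.9 to 62.1 CPM (7 of 8 in the table, 4 tested, Siglech and Clec9a at 3 counts or fewer). Most of the rise was Itgax, which was called higher (20.3 to 43.2 CPM). The other tested ones were not called, with log2 fold changes of 0.60 in Xcr1, -0.44 in Zbtb46 and -0.41 in Batf3 (adjusted p = 0.184 to 0.577, edgeR). Macrophage markers summed to 26.7 to 34.7 and 31.2 to 34.5 CPM (0 of 4 tested were called), and B cell markers to 69.8 to 181 and 70.0 to 122 CPM (0 of 6 were called). The part of these cells in the members' values was not tested.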

How the data were processed

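RNA of 6 cDNT libraries, 3 for each group, was sequenced, and the authors deposited raw read counts per Ensembl gene. The submitters' processing notes name HISAT2, HTSeq and GRCm38, while the study's methods name other tools and another library kit, and whether strand was used is not given in the sources used here. Counts were tested as deposited with edgeR 4.0.16 (R 4.3.3): TMM scaling, a filter of at least 10 counts in at least 3 libraries, a quasi-likelihood test without a replicate block, and Benjamini-Hochberg adjustment over 14916 genes at 0.05, with the study's fold threshold of 1.5 as a second call. The script was tested on simulated data. CPM used TMM-scaled library sizes. The alternatives were DESeq2 1.42.0, limma-voom (limma 3.58.1), upper-quartile scaling, other filters, a replicate block, offsets for GC content and length, leaving out each library, and other lengths, of which the longest protein-coding transcript was added after seeing the data.

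GENCODE M21 matched 29332 of the 29393 identifiers and gave coordinates, exons and coding sequences. Promoter windows came from RefSeq (GRCm38.p6). Alignments were made with Biopython 1.88, and permutation tests with SciPy 1.17.1. The members and lists were chosen with earlier results of these data known. The members, genes of the pathway list that were called, and 8 of its genes chosen for their role (Cd244a, Cd2, Fyn, Lck, Inpp5d, Ptpn6, Ptpn11 and Zbtb16) were named, together with the 3 genes most like the member of the smallest p-value. The floor of 3 counts covers counting error only.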

Additional observations from a re-analysis of the deposited data

How the results depend on the processing

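Of 126 member values recomputed under alternatives, 113 kept their direction and side of the threshold. Sh2d1b2 ranged from -0.69 to -0.52 when each library was left out (adjusted p = 0.00835 to 0.116, edgeR) and passed in 2 of these 6 fits and under all 8 other alternatives. Slamf6 ranged from -0.45 to -0.29 when each library was left out, and passed with no filter (-0.35), the GC and length correction (-0.42), and that correction with the replicate block (-0.42). Cd84 was reversed by the correction (-0.089) and by the correction with the block (-0.086), and Sh2d1a by the same (-0.28 and -0.23) and without W/O IL-10 replicate 2, with a range of -0.088 to 0.067 over the libraries left out. Cd48 fell to 0.10 under the correction. The causes were not tested.

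Members called lower were 2 with no filter, with the correction and with the correction and block, and 0 to 2 with a library left out, and members with a 1.5-fold change were then 0 to 1. Pathway genes called higher were 3 with DESeq2, 5 with no filter, 5 with the correction, 7 with the correction and block and 0 to 2 with a library left out. Those called lower were 2 with DESeq2, 3 with no filter, 2 with the replicate block, 2 with the correction and block and 0 to 4 with a library left out. These counts of members and pathway genes are to be read beside the calls over all genes, which moved with the setting too. DESeq2, the block and the correction tested the same 14916 genes, while no filter or a left-out library changed the number tested. Over all genes the calls went from 327 (2.19%) to 696 (4.67%) with DESeq2, 1239 with no filter, 555 with the correction, 915 with the correction and block and 35 to 525 with a library left out. With the fold threshold they went from 217 to 359, 639, 354 (correction and block) and 35 to 254.

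Same-numbered libraries deviated together with correlations of 0.0524, -0.0573 and 0.1136, which does not pair them. With the replicate block Sh2d1b2 was at -0.63 (adjusted p = 0.0233, edgeR), and the block changed no member's call. Slamf1 had the fewest counts of the members, 136 to 231 in a library, and the largest standard error (0.16).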
